A study of Rattus norvegicus with 9 samples.

Results

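The enzymes, transporters and regulators of glycolysis, pyruvate oxidation and the TCA cycle were followed in 3 tissues of the rat through a list of 52 genes. A gene was represented by the probe set that carries its symbol alone in the annotation of the array, and by the brightest one over the 9 arrays where several do. This gave 50 of the 52 genes, out of 14506 genes that the array names in this way. Pgd matched no such probe set and Dlst is listed only together with another gene, so neither was analysed here, and Pcx (pyruvate carboxylase) was matched under its current symbol Pc. Membership rests on function, and the list was chosen with earlier results of these data known.

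Glycolysis splits glucose into pyruvate in the cytosol, lactate dehydrogenase interconverts pyruvate and lactate, and the pyruvate dehydrogenase complex feeds pyruvate into the TCA cycle of the mitochondrion. Many of these steps have isozymes, separate genes for the same reaction, and tissues differ in which ones they use. Mature red cells have lost their mitochondria and live on glycolysis, whereas neurons depend on oxidation and astrocytes are known for glycolysis and the release of lactate.

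RNA of untreated male Wistar rats had been taken from blood, hippocampus (HC) and prefrontal cortex (PFC), and measured on Affymetrix arrays of the type Rat Gene 1.0 ST, which cover whole transcripts, with 3 arrays per tissue from the rats numbered 2, 5 and 7. The rats were 6 weeks old on arrival and were housed for 1 week, and the labels name no agent and no altered allele in any group. The methods describe 4 rats with 1 sample omitted and the sampling protocol deposited with each array 6 rats, so the number of animals was read from the arrays. Blood RNA was stabilized and purified with one kit and RNA of the frozen brain punches with another, so tissue and RNA preparation cannot be told apart in any comparison with blood.

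The values are RMA values (robust multi-array average, quantile normalized), read as log2, from 1.53 to 14.01. Arrays of the same tissue were more alike in brain than in blood. Spearman's rho over all probe sets was 0.995 to 0.996 in HC and in PFC and 0.957 to 0.968 in blood. Blood against brain gave 0.751 to 0.769. Exact ties between every array of a tissue were more frequent in brain, with 542 tied probe sets for HC, 478 for PFC and 14 for blood. How far such ties narrow the spread and the standard errors in brain was not tested. The labels held against marker genes: 7 of 7 measured erythroid markers were present in blood and 0 of 7 in HC or PFC, and 6 of 6 neuronal and 4 of 4 astrocyte markers were present in both brain regions. In bulk samples like these, fewer cells of a type and less RNA per cell cannot be told apart.

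Most of the pathway was present in each tissue. A gene is called present here when the mean of its 3 arrays is above 6.2, the cut-off used in the study. By this rule 43 of the 50 genes were present in blood, where 55.3% of all named genes were, 46 in HC (58% of named genes) and 46 in PFC (58.2%), and 42 were present in all 3 tissues. The 4 genes below the cut-off in blood and above it in both brain regions were Aldoc, Eno2, Slc16a7 and Dlat. The reverse held for Pklr alone. The shares of all named genes present in all 3 tissues, in brain only or in blood only were not counted. The gene counts for those patterns therefore do not set the pathway apart. Hk3, Pfkfb1 and Pdk4 were below the cut-off in all 3 tissues and entered no test, which leaves 47 genes tested.

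Against blood, both brain regions had higher values for nearly all of the pathway. In the comparison of brain (the mean of HC and PFC) with blood, 39 of the 47 genes were higher, where 55.1% of the 9926 named genes tested were, and 6 were lower, where 30.9% were (limma, adjusted p under 0.05). The median difference of the 47 was 1.53 on the log2 scale beside 0.40 over the named genes tested. HC alone gave 39 higher and 6 lower (53.8% and 30.2% of named genes) with a median of 1.47, and PFC alone gave 39 and 6 (53.7% and 30.2%) with a median of 1.61; these comparisons share the blood arrays. The 3 brain arrays of a region and the 3 blood arrays did not overlap for 46 of 47 genes in HC and 45 of 47 in PFC, the exceptions being Slc16a1 in both and Tkt in PFC. Overlap was not counted over all named genes, so these 2 counts do not set the pathway apart. The differences ran from -3.52 (Bpgm) to 6.17 (Eno2). Scaling the arrays to 10 housekeeping genes, whose median was 0.84 lower in brain than in blood, raises each difference by that amount and gives 42 genes higher and 3 lower.

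**Figure D1:**
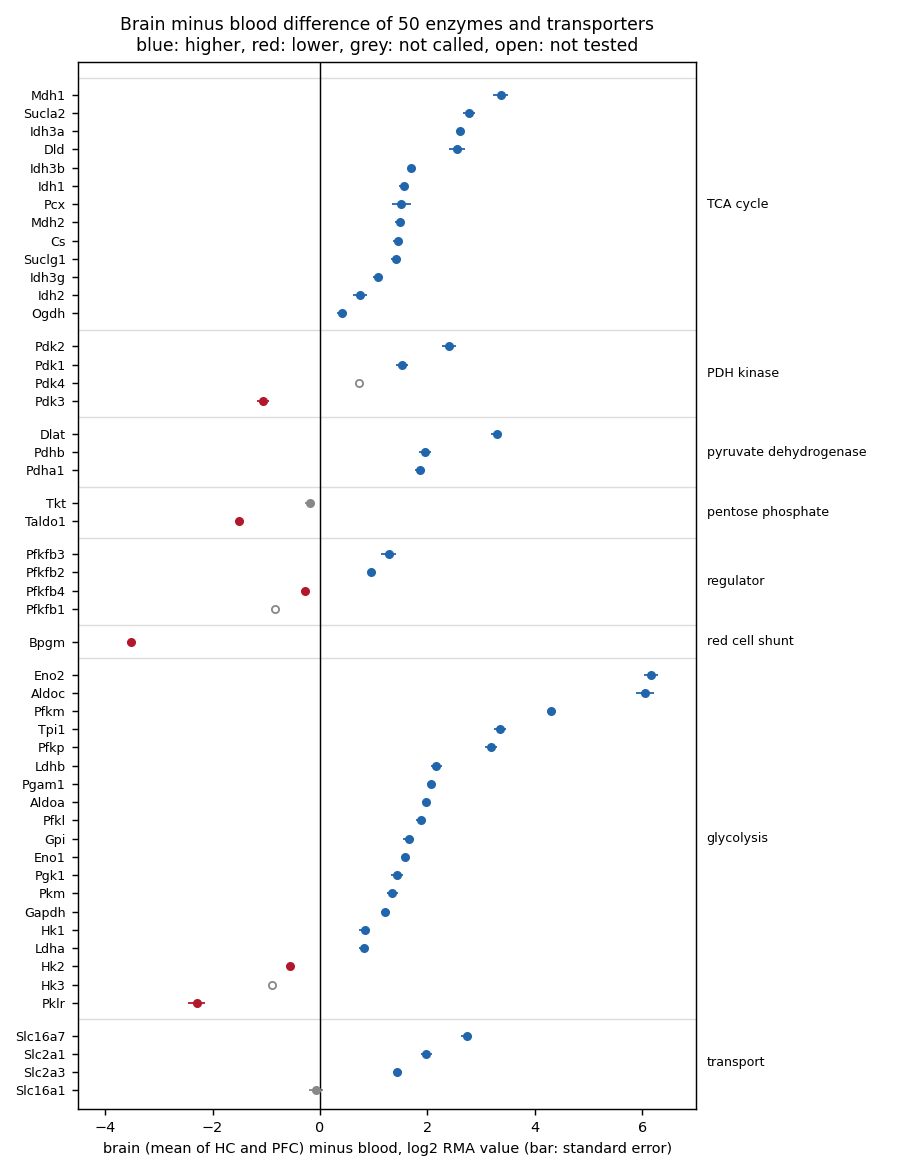
Difference between brain and blood for each of the 50 genes, grouped by role. The horizontal axis is the mean of the HC and PFC values minus the blood value on the log2 scale, bars are standard errors of the fit, filled blue and red points passed the test, grey points did not and open points were below the cut-off for testing. Eno2 (6.17) and Aldoc (6.05) lie farthest to the right and Bpgm (-3.52) and Pklr (-2.30) farthest to the left, and under scaling to housekeeping genes Hk2, Pfkfb4, Tkt and Slc16a1 move from below 0 to above it.

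Eno2, Aldoc, Bpgm and Pklr carry the widest differences on either side, and the 250 bases before their annotated transcription starts are shown for that reason, from RefSeq on assembly GRCr8. They lie at chr4:159267221-159267470 on the minus strand (Eno2), chr10:63715294-63715543 on the plus strand (Aldoc), chr4:64107027-64107276 on the plus strand (Bpgm) and chr2:176841014-176841263 on the plus strand (Pklr). Capitals mark matches, on either strand, to the GC box GGGCGG, known as a site for Sp1, and to ACGTG, the core of the hypoxia response element, whose factor is known to act on glycolytic genes.
Eno2: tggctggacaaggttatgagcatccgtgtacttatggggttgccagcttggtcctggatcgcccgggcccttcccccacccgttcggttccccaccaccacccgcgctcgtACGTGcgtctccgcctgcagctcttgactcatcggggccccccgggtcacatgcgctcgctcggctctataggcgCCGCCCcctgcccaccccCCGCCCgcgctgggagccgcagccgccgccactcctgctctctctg
Aldoc: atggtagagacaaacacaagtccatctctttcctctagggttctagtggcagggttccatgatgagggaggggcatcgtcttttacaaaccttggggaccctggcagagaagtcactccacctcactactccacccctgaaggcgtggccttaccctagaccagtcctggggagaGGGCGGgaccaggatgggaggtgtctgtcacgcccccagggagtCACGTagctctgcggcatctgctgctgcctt
Bpgm: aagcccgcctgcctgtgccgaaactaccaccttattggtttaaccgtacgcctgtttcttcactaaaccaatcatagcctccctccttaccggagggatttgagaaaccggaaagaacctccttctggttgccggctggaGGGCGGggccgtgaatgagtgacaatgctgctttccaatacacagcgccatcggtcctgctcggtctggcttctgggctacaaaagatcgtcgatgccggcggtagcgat
Pklr: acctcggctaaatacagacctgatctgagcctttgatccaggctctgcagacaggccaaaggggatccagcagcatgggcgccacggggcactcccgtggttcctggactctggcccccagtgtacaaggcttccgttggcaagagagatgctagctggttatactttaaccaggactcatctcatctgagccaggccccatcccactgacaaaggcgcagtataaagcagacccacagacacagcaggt
Eno2 had 2 GC boxes and 1 ACGTG, Aldoc 1 of each, Bpgm 1 GC box, and Pklr neither. Over 33469 such windows, 30.5% held a GC box and 16.6% held ACGTG. RefSeq gave 50 windows for 46 of the 50 genes looked up, which leave out Pgd and Dlst, and of these windows 29 held a GC box and 19 held ACGTG. The longer E box CACGTG, which contains ACGTG, stood in 6 of the 50 (5.59% of all windows) and the GATA motif AGATAA in 2 of the 50 (10.3% of all windows). A match says only that these letters stand in the window.

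The carriers that bring in glucose and move lactate were higher in brain for 3 of 4, where 55.1% of all named genes tested were. Slc2a1 (GLUT1), the glucose carrier of the blood-brain barrier and of glia, read 7.64, 7.34 and 7.82 in the blood of rats 2, 5 and 7, 9.51, 9.56 and 9.51 in HC and 9.64, 9.68 and 9.61 in PFC. Slc2a3 (GLUT3), the neuronal glucose carrier, read 8.56, 8.83 and 8.74 in blood, 9.97, 9.94 and 10.00 in HC and 10.18, 10.37 and 10.44 in PFC. For both carriers the brain arrays lay above all blood arrays, by 1.98 ± 0.10 for Slc2a1 (SE, adjusted p 2.91e-08) and 1.44 ± 0.09 for Slc2a3 (1.26e-07).

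The lactate and pyruvate carriers behaved differently from each other. Slc16a7 (MCT2), the neuronal carrier of high affinity, read 6.05, 5.88 and 5.58 in blood, 8.27, 8.21 and 8.27 in HC and 8.93, 8.89 and 8.84 in PFC. That placed it 2.73 ± 0.10 higher in brain, with 3 separate levels in the order blood, HC, PFC. Slc16a1 (MCT1), the carrier of endothelium, glia and red cells, read 8.25, 8.81 and 8.16 in blood, 8.30, 8.24 and 8.35 in HC and 8.38, 8.36 and 8.33 in PFC. Its groups overlapped and its brain minus blood difference of -0.08 ± 0.13 did not pass the test (adjusted p 0.589), was 0.12 without the blood array of rat 5 and 0.14 without rat 5, and was 0.76 under scaling to housekeeping genes.

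Hexokinase traps glucose in the cell, and its isozymes went in opposite directions. Hk1, the form of brain and red cells, read 9.60, 9.84 and 9.37 in blood, 10.44, 10.37 and 10.49 in HC and 10.39, 10.42 and 10.49 in PFC. Hk2, the form of muscle and fat that responds to insulin, read 7.01, 7.12 and 6.87 in blood, 6.53, 6.53 and 6.50 in HC and 6.30, 6.37 and 6.39 in PFC. Hk1 was thus higher in every brain array than in any blood array (0.83 ± 0.10, adjusted p 2.29e-05) and Hk2 lower (-0.56 ± 0.08, 5.13e-05), though Hk2 reads 0.28 higher (adjusted p 0.065) under scaling to housekeeping genes. Hk3, the form of white blood cells, read 5.57, 5.77 and 5.71 in blood, just above the level of 5.53 below which 95% of chemosensory receptor probe sets lie there. In HC (4.59, 4.97 and 4.83) and PFC (4.89, 4.82 and 4.61) its mean was not above that background.

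Phosphofructokinase, the main control point of glycolysis, is a tetramer of subunits from 3 genes, and all 3 were higher in brain. Pfkm, the muscle form, read 7.16, 7.10 and 7.42 in blood, 11.50, 11.49 and 11.52 in HC and 11.61, 11.59 and 11.47 in PFC, a difference of 4.30 ± 0.09 or 19.8-fold. Pfkp, the platelet form, read 7.30, 7.14 and 7.67 in blood, 10.25, 10.24 and 10.25 in HC and 10.86, 10.82 and 10.86 in PFC. Pfkl, the liver form, read 6.67, 6.84 and 6.72 in blood, 8.88, 8.77 and 8.98 in HC and 8.23, 8.44 and 8.44 in PFC. The gaps to blood were 3.18 ± 0.11 for Pfkp and 1.88 ± 0.09 for Pfkl, and no brain array came near a blood array for any of the 3 genes. Between the brain regions Pfkp was the higher in PFC and Pfkl the higher in HC, without overlap.

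Aldolase and enolase showed the same layout, with 1 form bright in all tissues and 1 close to the presence cut-off in blood. Aldoa, the aldolase of muscle and red cells, read 10.46, 10.60 and 10.71 in blood, 12.41, 12.37 and 12.44 in HC and 12.73, 12.69 and 12.70 in PFC. Aldoc, the aldolase of brain and in particular of astrocytes, read 5.53, 6.15 and 6.45 in blood, 12.11, 12.03 and 12.07 in HC and 12.27, 12.08 and 12.01 in PFC. The brain minus blood difference was 1.97 ± 0.07 for Aldoa and 6.05 ± 0.17 (66.4-fold, adjusted p 4.83e-10) for Aldoc. The Aldoc reading in the blood of rat 2 lay just below background there, so its fold rests on dim blood values.

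For the enolases, Eno1, the form found in most tissues, read 10.45, 10.48 and 10.67 in blood, 12.07, 12.08 and 12.17 in HC and 12.08, 12.13 and 12.16 in PFC. Eno2, known as neuron-specific enolase, read 5.74, 5.51 and 6.22 in blood, 11.91, 11.89 and 11.91 in HC and 12.10, 12.11 and 12.02 in PFC. Eno1 was 1.58 ± 0.08 and Eno2 6.17 ± 0.13 (71.8-fold, adjusted p 9.42e-11) higher in brain. The Eno2 reading in the blood of rat 5 lay below the blood background of 5.53, so its fold rests on dim blood values. Between blood and brain, the summed level of the 6 neuronal markers moved with Eno2, at 7.81 to 8.20 in blood, 14.06 to 14.13 in HC and 14.17 to 14.23 in PFC, and that of the 4 astrocyte markers with Aldoc, at 7.28 to 7.49, 13.23 to 13.28 and 12.76 to 12.82. Between HC and PFC the astrocyte sum was higher in HC while the Aldoc arrays of the regions overlapped. Of these markers 1 neuronal gene and no astrocyte gene was present in blood, and their part in the values of Eno2 and Aldoc was not tested. Sums of the oligodendrocyte and endothelial markers were higher in brain as well. The endothelial gene Pecam1 went the other way, at 7.82 to 8.43 in blood, 6.72 to 6.79 in HC and 6.88 to 6.97 in PFC.

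**Figure D2:**
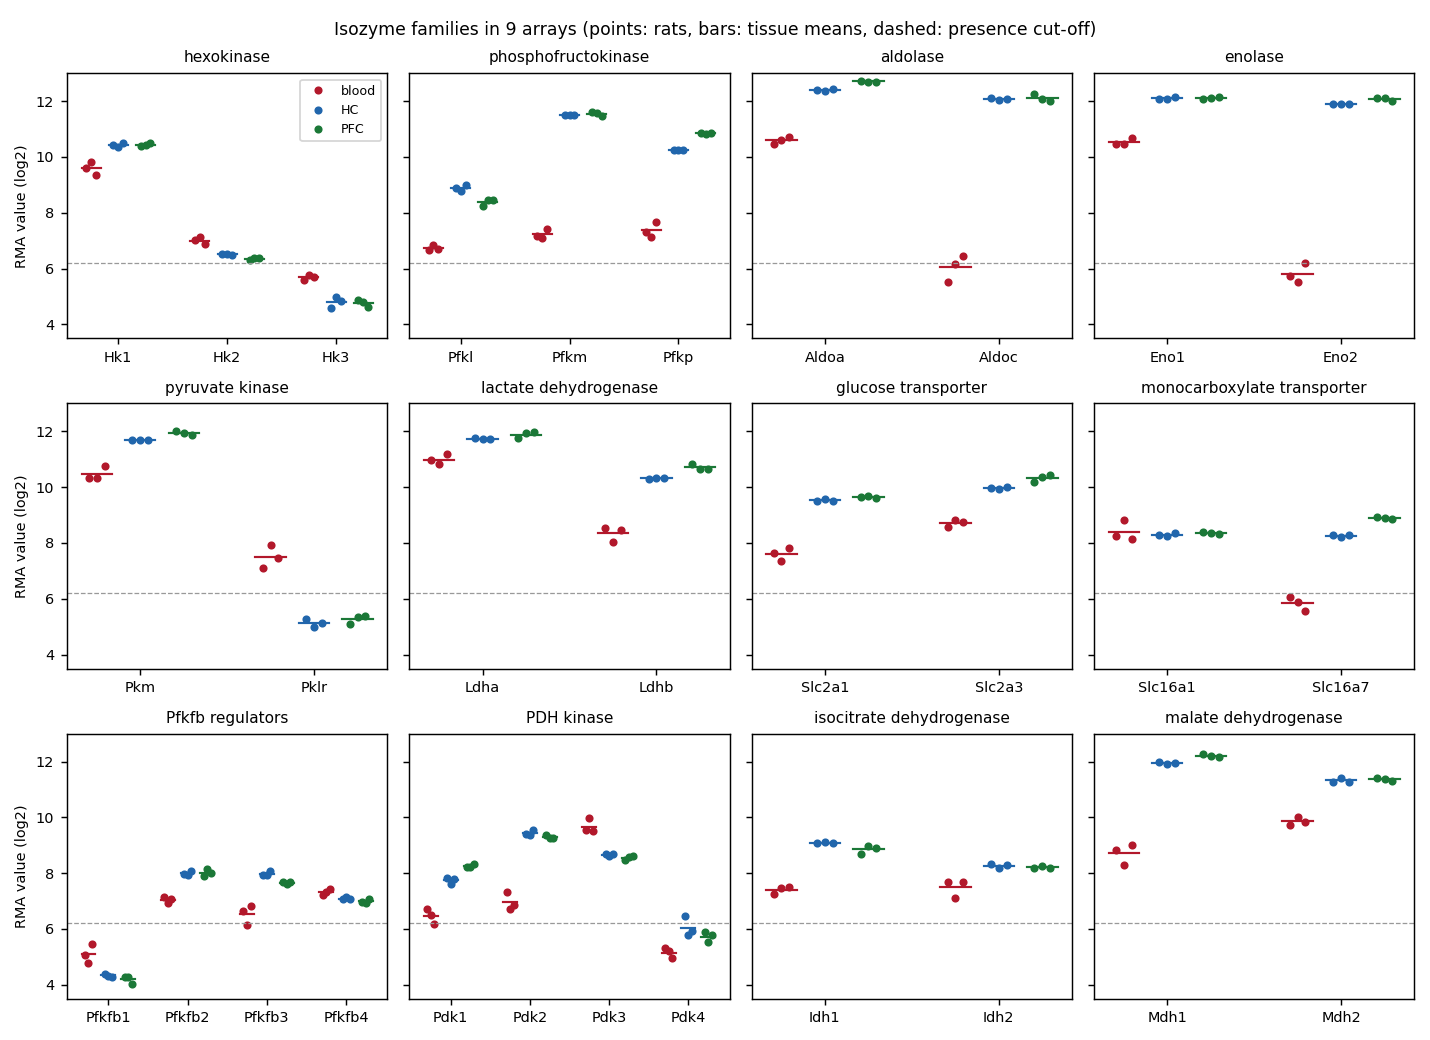
RMA values (vertical axis, log2) of 12 isozyme families in the 9 arrays, with points for rats, bars for tissue means and a dashed line at the presence cut-off of 6.2. Aldoc and Eno2 jump from about the cut-off in blood to near 12 in both brain regions while Pklr falls from blood to brain; brightness cannot be compared between different probe sets of a panel, and Hk2, Pfkfb4 and Slc16a1 lie higher in brain than in blood under scaling to housekeeping genes.

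Pyruvate kinase ends glycolysis. Pkm, the gene of the muscle and brain forms, read 10.31, 10.32 and 10.74 in blood, 11.68, 11.68 and 11.69 in HC and 12.00, 11.94 and 11.87 in PFC. Pklr, the gene of the liver and red cell forms, read 7.12, 7.91 and 7.45 in blood, 5.26, 4.98 and 5.13 in HC and 5.08, 5.35 and 5.37 in PFC. The 2 genes therefore went opposite ways, Pkm 1.35 ± 0.10 higher and Pklr 2.30 ± 0.16 lower in brain (adjusted p 6.72e-07 and 3.04e-07).

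Bpgm makes the bisphosphoglycerate with which red cells lower the oxygen affinity of hemoglobin, in a side branch of glycolysis. It read 12.29, 12.32 and 12.23 in blood, 8.71, 8.66 and 8.73 in HC and 8.72, 8.81 and 8.92 in PFC. The gene was 11.5-fold lower in brain (-3.52 ± 0.07, adjusted p 7.03e-11), yet stayed above the presence cut-off in all 6 brain arrays. The summed level of the 7 erythroid markers moved with Bpgm and Pklr, at 14.64 to 14.81 in blood, 7.56 to 7.74 in HC and 7.84 to 8.05 in PFC, with 7 of 7 present in blood and 0 of 7 in either brain region. Sums of the platelet, T cell, B cell, neutrophil and monocyte markers were higher in blood too, and the part of red cell RNA in the values of Bpgm and Pklr was not tested.

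Lactate dehydrogenase is built from the products of Ldha, the muscle form, and Ldhb, the heart form. Ldha read 10.96, 10.82 and 11.17 in blood, 11.75, 11.71 and 11.74 in HC and 11.76, 11.93 and 11.97 in PFC. Ldhb read 8.54, 8.05 and 8.45 in blood, 10.31, 10.33 and 10.32 in HC and 10.83, 10.65 and 10.66 in PFC. Both were higher in brain, Ldha by 0.82 ± 0.09 and Ldhb by 2.17 ± 0.11. A second, dimmer Ldha probe set gave 0.31.

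The steps of the main glycolytic line with 1 listed gene each were all higher in brain. Tpi1, which interconverts the triose phosphates, read 8.48, 8.09 and 8.57 in blood, 11.57, 11.54 and 11.61 in HC and 11.93, 11.91 and 11.80 in PFC, a rise of 3.35 ± 0.11 or 10.2-fold. Pgam1 (phosphoglycerate mutase) read 10.09, 9.95 and 10.25 in blood, 12.06, 12.06 and 12.11 in HC and 12.28, 12.23 and 12.24 in PFC, a rise of 2.06 ± 0.08. The other 3 had smaller differences, 1.65 ± 0.11 for Gpi (glucose phosphate isomerase), 1.44 ± 0.11 for Pgk1 (phosphoglycerate kinase) and 1.22 ± 0.08 for Gapdh, the dehydrogenase often used as a reference gene. Of the 18 tested glycolytic genes 16 were higher and 2, Hk2 and Pklr, lower, beside 55.1% and 30.9% of all named genes tested.

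Several of these genes have near-identical copies in the genome, and the array holds further probe sets under their symbols. The other 15 Gapdh probe sets gave 1.18 to 1.30, the 2 of Eno1 1.55 and 1.55, the 2 of Pkm 1.36 to 1.41 and that of Pdha1 1.86, all close to the value of the probe set used. The second probe set differed more for Pgam1 (-0.06), for Cs (0.18 against 1.45) and for Ldha. How the transcripts of such copies divide between the probe sets cannot be known from the values.

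The Pfkfb enzymes set the level of the fructose bisphosphate that activates phosphofructokinase. Pfkfb3, the inducible form with the strongest kinase activity, read 6.65, 6.13 and 6.83 in blood, 7.95, 7.94 and 8.06 in HC and 7.67, 7.61 and 7.68 in PFC. Pfkfb2, the heart form, read 7.13, 6.92 and 7.09 in blood, 7.95, 7.95 and 8.07 in HC and 7.91, 8.14 and 8.02 in PFC. Both were higher in brain without overlap, by 1.28 ± 0.14 and 0.96 ± 0.08. Pfkfb4, known from testis, read 7.22, 7.32 and 7.42 in blood, 7.06, 7.15 and 7.06 in HC and 6.97, 6.94 and 7.06 in PFC. It was lower by a small margin (-0.28 ± 0.07, adjusted p 0.0053) that becomes a higher value (0.56) under scaling to housekeeping genes. Pfkfb1, the liver form, was not above background in any tissue, with 4.79 to 5.45 in blood, 4.27 to 4.40 in HC and 4.04 to 4.30 in PFC.

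The pentose phosphate branch supplies NADPH and ribose, and its reversible arm links back to glycolysis. Taldo1 (transaldolase) read 10.07, 10.30 and 10.02 in blood, 8.83, 8.76 and 8.66 in HC and 8.45, 8.59 and 8.49 in PFC. It was lower in all brain arrays, by -1.50 ± 0.09 (adjusted p 7.96e-08). Tkt (transketolase) read 9.20 to 9.25 in blood, 8.91 to 9.07 in HC and 8.89 to 9.21 in PFC, and its difference of -0.19 ± 0.09 did not pass the test (adjusted p 0.063) and was 0.65 under scaling to housekeeping genes.

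The pyruvate dehydrogenase complex was higher in brain in all 3 listed subunits, where 55.1% of all named genes tested were. Dlat, the acetyltransferase core, read 6.26, 6.02 and 5.83 in blood, 9.36, 9.27 and 9.31 in HC and 9.28, 9.39 and 9.32 in PFC, a rise of 3.29 ± 0.10 or 9.76-fold. The subunits of the decarboxylase rose by like amounts, 1.86 ± 0.09 for Pdha1 and 1.95 ± 0.11 for Pdhb. Pdha1 read 8.59 to 8.97 in blood, 10.56 to 10.61 in HC and 10.73 to 10.81 in PFC.

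The kinases that switch this complex off were split. Pdk2, the most widespread form, read 7.32, 6.73 and 6.84 in blood, 9.40, 9.36 and 9.54 in HC and 9.38, 9.26 and 9.26 in PFC. Pdk1, a hypoxia-induced form, read 6.73, 6.50 and 6.19 in blood, 7.83, 7.63 and 7.79 in HC and 8.22, 8.24 and 8.34 in PFC. Pdk3 read 9.55, 9.96 and 9.50 in blood, 8.70, 8.61 and 8.70 in HC and 8.46, 8.58 and 8.61 in PFC. Pdk2 and Pdk1 were higher in brain, by 2.40 ± 0.13 and 1.53 ± 0.12, and Pdk3 lower, by -1.06 ± 0.11, a call that is lost (-0.22, adjusted p 0.239) under scaling to housekeeping genes. Pdk4, the form raised by fasting, was not above background in blood (5.30, 5.22 and 4.94) and stood above it in HC (6.45, 5.79 and 5.92) and PFC (5.88, 5.52 and 5.79), below the cut-off for testing.

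All 13 measured genes of the TCA cycle and its feeders were higher in brain, where 55.1% of all named genes tested were. Their median was 1.52, beside 0.40 over the named genes, with a range of 0.41 to 3.36. Mdh1, the cytosolic malate dehydrogenase of the malate-aspartate shuttle, read 8.85, 8.28 and 9.01 in blood, 11.97, 11.91 and 11.96 in HC and 12.26, 12.20 and 12.15 in PFC. Its mitochondrial counterpart Mdh2 read 9.74, 10.00 and 9.83 in blood, 11.28, 11.40 and 11.28 in HC and 11.41, 11.38 and 11.29 in PFC. The rise was 3.36 ± 0.14 (10.3-fold) for Mdh1 and 1.48 ± 0.08 for Mdh2.

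Among the other subunits of the cycle, Sucla2, the ATP-forming subunit of succinyl-CoA ligase, read 7.65, 7.44 and 8.00 in blood, 10.45, 10.36 and 10.36 in HC and 10.47, 10.61 and 10.52 in PFC. Its partner Suclg1 rose less, by 1.42 ± 0.09 against 2.77 ± 0.11. Idh3a, the catalytic subunit of the NAD-dependent isocitrate dehydrogenase, read 8.23, 8.06 and 8.17 in blood, 10.80, 10.76 and 10.68 in HC and 10.83, 10.82 and 10.71 in PFC. The gap was 2.61 ± 0.07 for Idh3a, 1.70 ± 0.07 for Idh3b and 1.09 ± 0.09 for Idh3g.

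Dld, the dehydrogenase shared by the pyruvate and oxoglutarate complexes, read 7.50, 6.74 and 7.48 in blood, 9.75, 9.59 and 9.73 in HC and 9.87, 9.90 and 9.89 in PFC, 2.55 ± 0.16 higher in brain. Ogdh, the first enzyme of the oxoglutarate complex, had the smallest difference of the 13, at 0.41 ± 0.09 (adjusted p 0.0019). The NADP-dependent Idh1 of the cytosol and Idh2 of the mitochondrion rose by 1.56 ± 0.09 and 0.75 ± 0.13, with Idh1 at 7.26, 7.48 and 7.49 in blood, 9.10, 9.12 and 9.07 in HC and 8.69, 8.97 and 8.89 in PFC. Idh2 read 7.67, 7.11 and 7.69 in blood, 8.32, 8.17 and 8.30 in HC and 8.20, 8.24 and 8.19 in PFC. Citrate synthase (Cs) and pyruvate carboxylase (Pcx), the refilling enzyme that in brain is known from astrocytes, were 1.45 ± 0.08 and 1.52 ± 0.18 higher.

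Isozyme choice was compared through pairs. The difference between 2 isozymes on the same array removes a shift common to that array. Comparing it between tissues removes a constant gap in brightness between probe sets. What is left is read as the change of one isozyme relative to the other. The smaller spread of the blood arrays (SD 1.85 to 1.90, against 2.18 to 2.21 in brain) and readings near background do not cancel. Of 26 isozyme pairs, the 3 HC and the 3 blood arrays did not overlap for 25, the 3 PFC and the 3 blood arrays for 24, and the 3 HC and the 3 PFC arrays for 16. A pair without overlap has an exact two-sided permutation p of 0.1, the smallest that 3 arrays against 3 can give, so no pair could reach 0.05. The change was over 1 on the log2 scale for 19 pairs in HC against blood, for 19 in PFC against blood and for 1 between the brain regions, with median sizes of 1.62, 1.72 and 0.21. Leaving out the pairs with a reading not above background, 14 of 18 pairs in HC and 13 of 18 in PFC changed by over 1 against blood, and 18 and 17 of the 18 did not overlap with it. Pairs of other genes were not counted, so these counts do not set isozymes apart from them.

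Enolase and aldolase shifted most. The Eno1 minus Eno2 difference was 4.45 to 4.97 in blood, 0.16 to 0.25 in HC and -0.01 to 0.13 in PFC, a shift toward Eno2 of -4.51 ± 0.15 in HC and -4.67 ± 0.16 in PFC. The Aldoa minus Aldoc difference was 4.26 to 4.94 in blood, 0.30 to 0.37 in HC and 0.46 to 0.69 in PFC, a shift toward Aldoc of -4.21 ± 0.20 and -3.96 ± 0.21. In each case the form present in blood was itself higher in brain, and the other form rose by more.

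Pyruvate kinase and the kinases of pyruvate dehydrogenase followed in size. Pkm minus Pklr was 2.41 to 3.30 in blood, 6.42 to 6.70 in HC and 6.50 to 6.92 in PFC, a shift toward Pkm of 3.59 ± 0.29 and 3.71 ± 0.31. Pdk2 minus Pdk3 moved by 3.47 ± 0.30 and 3.45 ± 0.31, from -3.23 to -2.22 in blood to 0.70 to 0.85 in HC and 0.65 to 0.92 in PFC. The lactate carriers shifted from Slc16a1 toward Slc16a7 by -2.52 ± 0.21 in HC and -3.10 ± 0.21 in PFC.

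Smaller shifts were seen for lactate dehydrogenase, hexokinase and the glucose carriers. Ldha minus Ldhb was 2.42 to 2.77 in blood, 1.38 to 1.44 in HC and 0.93 to 1.31 in PFC, a shift toward Ldhb of -1.22 ± 0.11 and -1.47 ± 0.16, or -1.51 and -1.70 with all Ldha probe sets averaged. Hk1 gained on Hk2 by 1.31 ± 0.08 and 1.48 ± 0.06. Slc2a1 minus Slc2a3 moved by 0.66 ± 0.19 and 0.42 ± 0.21, from -1.49 to -0.92 in blood to -0.49 to -0.38 in HC and -0.83 to -0.54 in PFC, so its PFC and blood arrays lay close.

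In both dehydrogenase families with a cytosolic and a mitochondrial form the cytosolic one gained in brain. Mdh1 minus Mdh2 moved by 1.77 ± 0.30 in HC and 1.99 ± 0.29 in PFC, and Idh1 minus Idh2 by 0.91 ± 0.24 and 0.72 ± 0.24. Pairs that overlapped with blood were Pdk1 against Pdk4 in HC (0.38 ± 0.17, exact p 0.2), Hk2 against Hk3 in PFC (0.27 ± 0.14, exact p 0.2) and Pfkfb2 against Pfkfb3 in PFC (-0.14 ± 0.18, exact p 0.6). In pairs with Hk3 or Pdk4 a reading was not above background on one side of the comparison with blood, and a shift there is only a limit. Pairs with Pfkfb1, which was not above background in any tissue, bound nothing.

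Subunits of 1 enzyme also moved apart. Idh3a gained on Idh3g by 1.51 ± 0.08 in HC and 1.55 ± 0.08 in PFC and on Idh3b by 1.01 ± 0.04 and 0.82 ± 0.04, and Idh3b gained on Idh3g by 0.50 ± 0.07 and 0.72 ± 0.08. Pdha1 and Pdhb stayed closest, with -0.21 ± 0.07 in HC and 0.03 ± 0.06 in PFC, where the arrays overlapped with blood (exact p 0.7).

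**Figure D3:**
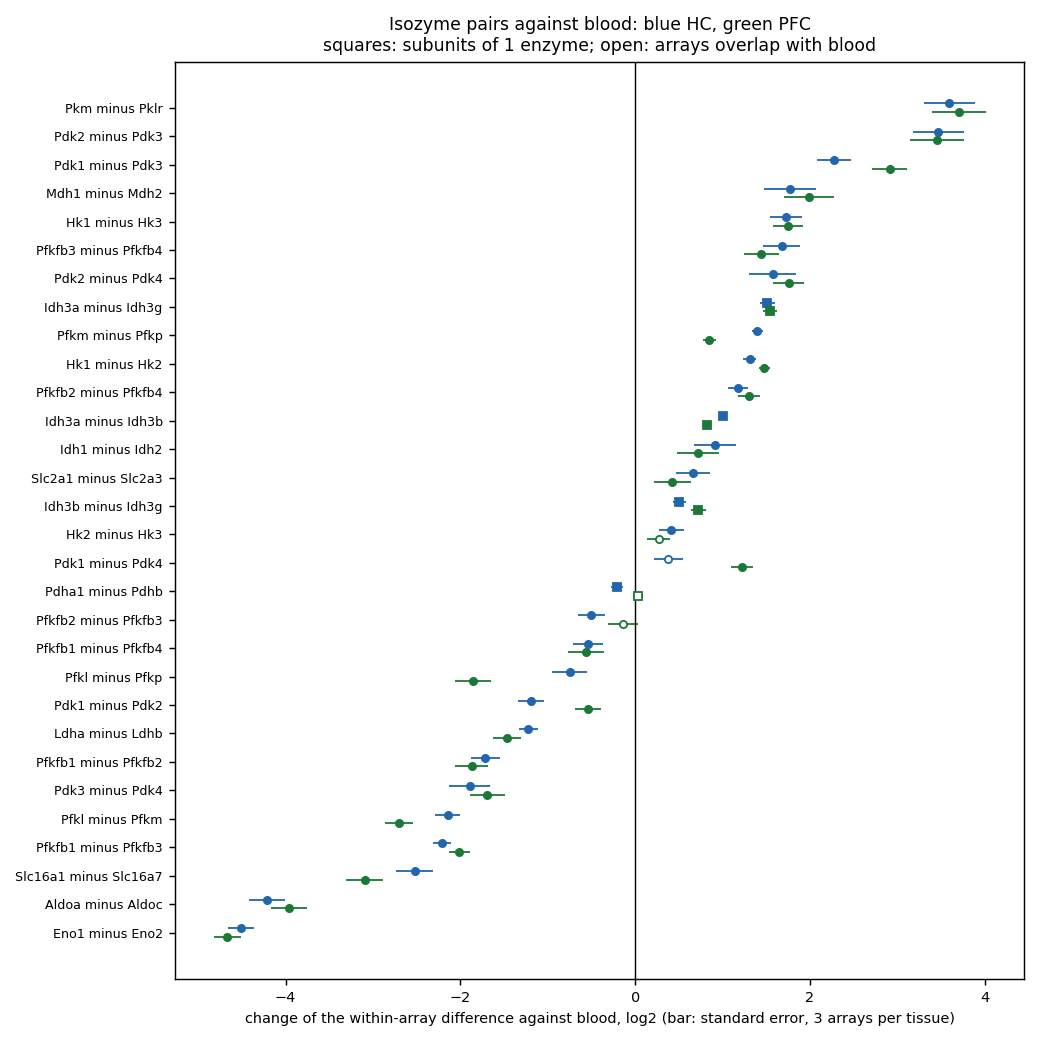
Change of the within-array difference of each pair against blood (horizontal axis, log2) in HC (blue) and PFC (green), with standard errors from 3 arrays per tissue. Squares are subunits of 1 enzyme and open symbols mark arrays that overlap with blood, and pairs with Pfkfb1 rest on readings not above background in any tissue; Eno1 minus Eno2 lies at -4.51 and -4.67 and Pkm minus Pklr at 3.59 and 3.71, and Pfkl minus Pfkp has the widest gap between HC (-0.75) and PFC (-1.85).

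In the fit of all arrays, few genes of the pathway were called between HC and PFC. Even so, the HC and PFC arrays did not overlap for 28 of the 47 genes. Overlap was not counted over all named genes, so this count does not set the pathway apart. Of 47 genes tested 1 was higher in HC, where 5.16% of the named genes tested were, and 3 were lower, where 5.72% were, so the share called was near that of all named genes, and the median difference was -0.09 beside -0.01. Pfkl was higher in HC by 0.50 ± 0.10 (adjusted p 0.0106). Slc16a7, Pfkp and Pdk1 were lower in HC, by -0.63 ± 0.12 (0.0073), -0.60 ± 0.12 (0.0139) and -0.52 ± 0.13 (0.0401). With the rat as a block, which pairs the 3 tissues of an animal, Pdk1 did not pass (adjusted p 0.062).

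Most of these calls changed when arrays were left out. Without any 1 of the 6 brain arrays, Pfkp had an adjusted p of 0.054 to 0.060 and Pdk1 of 0.094 to 0.166. Pfkl was lost without the HC array of rat 2 (0.051) or rat 7 (0.060), while Slc16a7 was called without any single array. With a whole rat left out, Pfkl was lost without rat 2 (0.15) or rat 7 (0.133), Pfkp without rat 2 (0.195) or rat 5 (0.073) and Slc16a7 without rat 2 (0.073) or rat 5 (0.116). Pdk1 was lost without any 1 of the 3 rats (0.108 to 0.272).

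The blood arrays widen the error of this comparison, since all 9 arrays share 1 estimate of the spread. A fit of the 6 brain arrays alone called 4 of the 47 genes higher and 15 lower in HC, where 14.2% and 15.7% of named genes were. With the rat as a block as well it called 3 and 11, against 1370 and 1518 of the 9926 named genes tested. Beside the 4 above, the genes higher in HC were Pfkfb3 (0.33 ± 0.05), Taldo1 (0.24 ± 0.06) and Hk2 (0.17 ± 0.05). Those lower in HC included Ldhb (-0.39 ± 0.06), Slc2a3 (-0.36 ± 0.07), Tpi1 (-0.31 ± 0.05), Aldoa (-0.30 ± 0.04), Mdh1 (-0.26 ± 0.05) and Pkm (-0.25 ± 0.05). The remaining 6, Idh3b, Gpi, Dld, Pdha1, Eno2 and Pgam1, lay between -0.23 and -0.17. With the rat as a block, the 5 genes Hk2, Pgam1, Eno2, Pdha1 and Dld lost their call (adjusted p 0.052 to 0.068). None of the 19 differences reached 1 on the log2 scale.

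**Figure D4:**
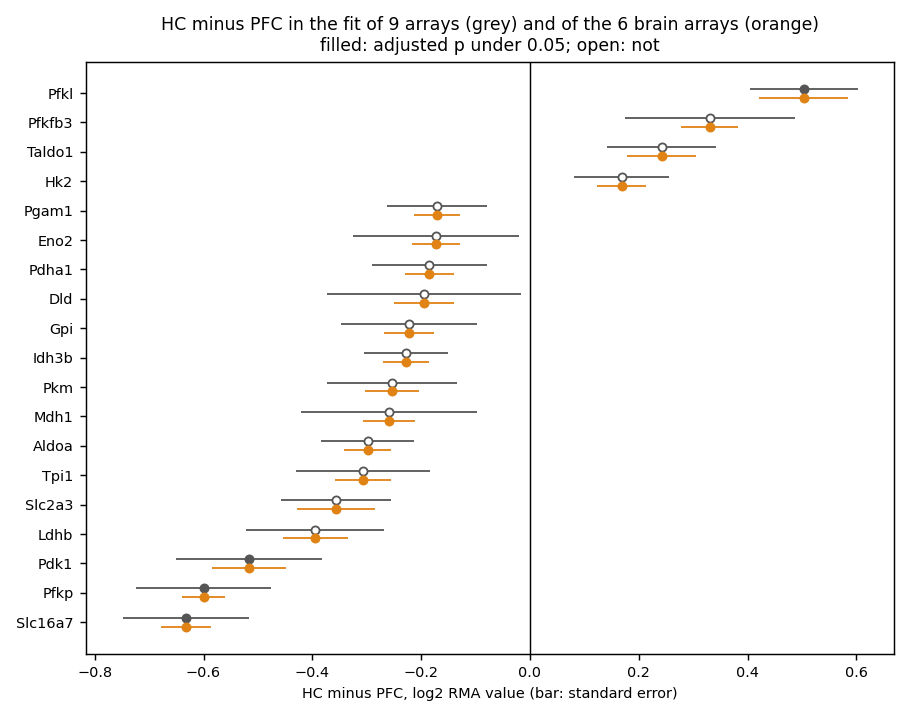
HC minus PFC difference (horizontal axis, log2, with standard errors) of the 19 genes called in the fit of the 6 brain arrays (orange) beside the same difference in the fit of all 9 arrays (grey), filled where the adjusted p was under 0.05. The estimates are the same and the bars of the 9-array fit are longer; Pfkl (0.50) is at the top and Slc16a7 (-0.63) at the bottom.

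Isozyme pairs between the brain regions pointed to phosphofructokinase first. Pfkl minus Pfkp was -1.48 to -1.27 in HC and -2.63 to -2.38 in PFC, a difference of 1.10 ± 0.10. Pfkm lay between them, as Pfkl minus Pfkm and Pfkm minus Pfkp differed by 0.56 ± 0.12 and 0.55 ± 0.05. Pdk1 minus Pdk2 was 0.65 ± 0.09 lower in HC, at -1.76 to -1.57 against -1.16 to -0.92, and Slc16a1 minus Slc16a7 was 0.57 ± 0.02 higher. Cell type markers moved between the regions too. Their summed levels were 11.99 to 12.27 in HC and 11.05 to 11.67 in PFC for 3 oligodendrocyte genes, 13.23 to 13.28 and 12.76 to 12.82 for 4 astrocyte genes, and 14.06 to 14.13 and 14.17 to 14.23 for 6 neuronal genes, of which Map2 and Slc17a7 went the other way. For 3 choroid plexus genes the sums were 10.08 to 11.27 and 6.46 to 6.67, with Ttr alone present in HC, at 9.96 to 11.20 there and 4.20 to 4.45 in PFC. The part of these cells in the HC and PFC differences was not tested.

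Other genes of carbohydrate metabolism were taken from a list of 54, of which 46 had a probe set and 41 were tested. Of these 26 were higher and 11 lower in brain, near the shares of 55.1% and 30.9% of all named genes tested, with a median of 0.99. The widest on the higher side were Got1 (3.90 ± 0.09), the cytosolic aminotransferase that works with Mdh1 in the malate-aspartate shuttle, Pygb (3.68 ± 0.19), the brain glycogen phosphorylase, and Pgm2l1 (3.21 ± 0.11), a sugar phosphate mutase paralog. Me3, a mitochondrial malic enzyme, came next by its measured difference (3.02 ± 0.21), but it was not above background in blood, so the difference is at least 2.59. Its place against Pgm1 (2.93 ± 0.10), another sugar phosphate mutase, is therefore not settled.

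On the lower side were Pygl (-2.99 ± 0.15), the liver glycogen phosphorylase also known from white blood cells, Slc16a3 (-2.94 ± 0.14), the lactate exporter MCT4, Rpia (-1.84 ± 0.11) of the pentose phosphate branch and Eno3 (-1.35 ± 0.13), the muscle enolase. The forms of glycogen phosphorylase did not go together. Pygb read 6.41, 5.61 and 6.70 in blood and 9.83 to 9.97 in the 6 brain arrays, and Pygl 8.56, 8.70 and 9.32 against 5.62 to 6.02. The muscle form Pygm was higher in brain (2.70 ± 0.21, adjusted p 7.04e-07), named here after its values were seen. The summed level of 5 neutrophil markers, 11.63 to 11.98 in blood, 6.90 to 7.00 in HC and 6.79 to 6.86 in PFC, moved with Pygl and Slc16a3. Sums of the erythroid, platelet, T cell, B cell and monocyte markers were higher in blood as well. The part of any of these cells was not tested. Between the brain regions 2 of the 41 genes were higher and 3 lower in HC, near the 5.16% and 5.72% of named genes. One of them, Pdp1, the phosphatase that switches pyruvate dehydrogenase on, was singled out after its values were seen. It read 5.74, 5.95 and 6.09 in blood, 7.88, 7.91 and 7.92 in HC and 9.72, 9.77 and 9.78 in PFC, with an HC minus PFC difference of -1.85 ± 0.10 (adjusted p 5.08e-06), wider than that of any of the 47 genes.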

How the data were processed

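RNA of blood, HC and PFC from 3 rats was measured on 9 arrays. Intensities were quantile normalized and run through RMA in Affymetrix Power Tools by the authors, who deposited 1 value per probe set and array, read as log2 because RMA works on that scale. The log base is not given in the sources used here, and the detection p-values of the authors were not used. Of 29215 probe sets 29214 had values, and those with a mean above 6.2 in at least 1 tissue (16884) were tested.

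The 52 members, the further lists and the tests were chosen with earlier results of these data known. Tissue and rat came from the sample labels. Tissues were compared in limma 3.58.1 (R 4.3.3, lmFit and eBayes, a factor of 3 tissues over all 9 arrays), p-values were adjusted by Benjamini-Hochberg over the 16884 tested features, and a call means an adjusted p under 0.05. The procedure was tested on simulated data. As background served the level below which 95% of 1298 probe sets of chemosensory receptors lie (blood 5.53, HC 4.88, PFC 4.85). Despite the quantile step, the blood arrays had a smaller spread of values (SD 1.85 to 1.90) than the brain arrays (2.18 to 2.21). Only 3 arrays per tissue limit the precision.

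All members could be named, and per-array values were given by rule for isozyme families and for members with differences over 2 between brain and blood or over 0.5 between HC and PFC. Those of Taldo1 were given outside this rule. Further genes of the pathway were named as the 4 highest and 4 lowest. Same-numbered arrays come from 1 animal: their deviations from the tissue means correlated at 0.14 to 0.29 between HC and PFC and at -0.08 to 0.05 with blood, so the rat as a block was an alternative (statmod 1.5.0). Other alternatives were scaling to the median or to 10 housekeeping genes, other filters and thresholds, all probe sets of a gene, a trended robust variance, the arrays in the fit, and leaving out each array or rat. Sequences came from RefSeq (GRCr8). Python 3.11.15 with matplotlib 3.10.9 made the plots.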

Additional observations from a re-analysis of the deposited data

How the results depend on the processing

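Of the 45 calls between brain and blood, all were made at an adjusted p under 0.01 too. A log2 difference of at least 1 left 34 higher and 4 lower, without Hk1, Ldha, Pfkfb2, Idh2, Ogdh, Hk2 and Pfkfb4. Under the other scalings, blocks, filters and variance models and with an array or rat left out, 42 kept their direction and their side of the threshold, except that Hk2 was not tested with a filter at 7.2. Hk2, Pfkfb4 and Pdk3 did not keep them under scaling to 10 housekeeping genes, whose median was 0.84 lower in brain than in blood (0.14 higher in HC than in PFC), so that this scaling raises each brain value against blood by that amount. It turned Hk2 to 0.28, Pfkfb4 to 0.56, Slc16a1 to 0.76 and Tkt to 0.65, and left 3 genes lower in brain, 3 in HC and 3 in PFC against blood. Between HC and PFC it gave 0 genes higher and 7 lower. Isozyme pairs without overlap between the compared tissues kept their direction. For pairs with overlap a change of sign was not counted. Pfkfb1 minus Pfkfb4 between HC and PFC changed sign (0.03, and -0.07 with dim readings raised to the background). Over all pairs 9 values moved by more than the spread between arrays. Of these, 7 moved with dim readings raised to background and 2 with all Ldha probe sets averaged. Counting all probe sets of a gene gave 61 probe sets higher in brain, 60 in HC and 61 in PFC against blood.

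The HC and PFC counts (1 and 3) moved most: 4 and 15 with only the brain arrays in the fit, 3 and 11 with the replicate block as well (added after seeing the data), 5 lower with a filter at 7.2, 5 lower with a trended robust variance, 0 and 1 at an adjusted p under 0.01, and 0 and 0 at a log2 difference of at least 1. With the rat as a fixed block in the fit of all arrays, pairing the tissues of an animal, the counts were 39 higher and 6 lower between brain and blood and 1 and 2 between HC and PFC, and this block changed no call of a single gene in these comparisons except that of Pdk1.

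Leaving out each array or rat gave 0 to 2 genes higher and 0 to 10 lower in HC than PFC, with 10 lower without the blood array of rat 5. It gave 39 higher and 6 to 7 lower in brain, 38 to 39 and 5 to 6 in HC and 39 and 6 to 7 in PFC against blood, and 43 to 44 genes present in blood, 46 in HC, 46 in PFC and 42 to 43 in all. With an array or rat left out, the remaining 2 arrays of a tissue were tested with the spread pooled over tissues. Slc16a1 ranged from -0.21 to 0.14 between brain and blood, the positive values being 0.12 without the blood array of rat 5 and 0.14 without that rat. Dim readings (Hk3, Pfkfb1, Pdk4 in blood) limit what their pairs can show.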
